A study of Homo sapiens with 4 samples.

Results

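Histone chaperones are the proteins that escort histones outside nucleosomes. The genes described here are 10 members of that class, NASP, ASF1A, ASF1B, CHAF1A, CHAF1B, HIRA, SSRP1, SUPT16H, SET and ANP32E, studied in the 786-O line, which was derived from a clear cell renal carcinoma and lacks the VHL tumour suppressor. They were chosen by name. For each gene, every ATAC-seq peak that overlapped its GRCh38 span or the 20 kb on either side was taken. The 10 windows covered 722.9 kb and held 53 accessible regions, of 138467 in the whole series.

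ATAC-seq marks DNA that a transposase can reach. The series holds 4 libraries in 2 groups. The WT control group has 2 libraries of Cas9-expressing 786-O cells with wild-type DEK (the negative control of the labels). The DEK KO group has 2 libraries of the same Cas9-expressing cells after infection with a virus carrying DEK guide RNAs. Both groups therefore carry Cas9, and per the labels the Cas9 line was itself a clone and the knockout cells were sorted as single cells. No drug treatment, time course or age applies to these cultured cells. Whether the paired libraries of each group were grown or cloned separately is not stated in the labels, so p-values over libraries measure only the spread between these samples, and that spread may be technical. In a bulk library, fewer cells with an accessible site and less access per cell cannot be told apart.

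DNA in the nucleus is wrapped around octamers of core histones, and free histones are kept from clumping by chaperones. The CAF1 complex places H3 and H4 behind the replication fork, HIRA places the replacement form of H3 outside replication, and ASF1 hands H3 and H4 to both of them. NASP keeps a reserve of H3 and H4. FACT, made of the SSRP1 and SUPT16H proteins, loosens and rebuilds nucleosomes in front of polymerases, SET is an acidic chaperone and an inhibitor of histone acetylation, and ANP32E removes the variant H2A.Z. DEK, the protein deleted in this study, is itself described as a chaperone of H3.

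Values are given in the order replicate 1, then replicate 2 of a group. The class of a region says which lists called it. Peaks of different lists were joined into 1 region where they shared at least 1 bp, KO-only means both DEK KO lists and neither control list, and WT-only means the reverse. The percentile is the share of the peaks in a list that had a lower −log10 p, so that 100 would be the strongest peak of that list. The DEK KO lists were longer, and extra weak peaks in a list raise the percentile of all its stronger peaks. Percentiles are therefore given side by side as a description, and again after every list was shortened to its 89563 strongest peaks, called equal length below. A start region is a region within 1 kb of the start of a gene in RefSeq.

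The lists of the 4 libraries held 89563 and 90409 peaks in the WT controls and 102760 and 99508 in DEK KO, with median widths of 610 and 629 bp against 594 and 550 bp. Read depth is not given in the lists and is unknown. The renal markers PAX8, PAX2, LHX1, CDH6, EPAS1 and VIM had start regions in all 4 lists, and CA9 had none. No peak of any list lay in the window of CDKN2A, a gene known to be deleted in 786-O. Of 12 markers of blood, liver, endothelium, nerve, heart and other epithelium, 8 had no start region, CD79A had a region in 1 list only, and APOA1, SYP and EPCAM had regions in all 4. The start region of DEK was called in every library, at percentiles of 11.9 and 24.1 in WT control and of 39.5 and 57.6 in DEK KO. A peak there does not check the knockout, because cutting by a guide RNA can leave the promoter in place. Where the guide RNAs cut is not given here.

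**Figure D1:**
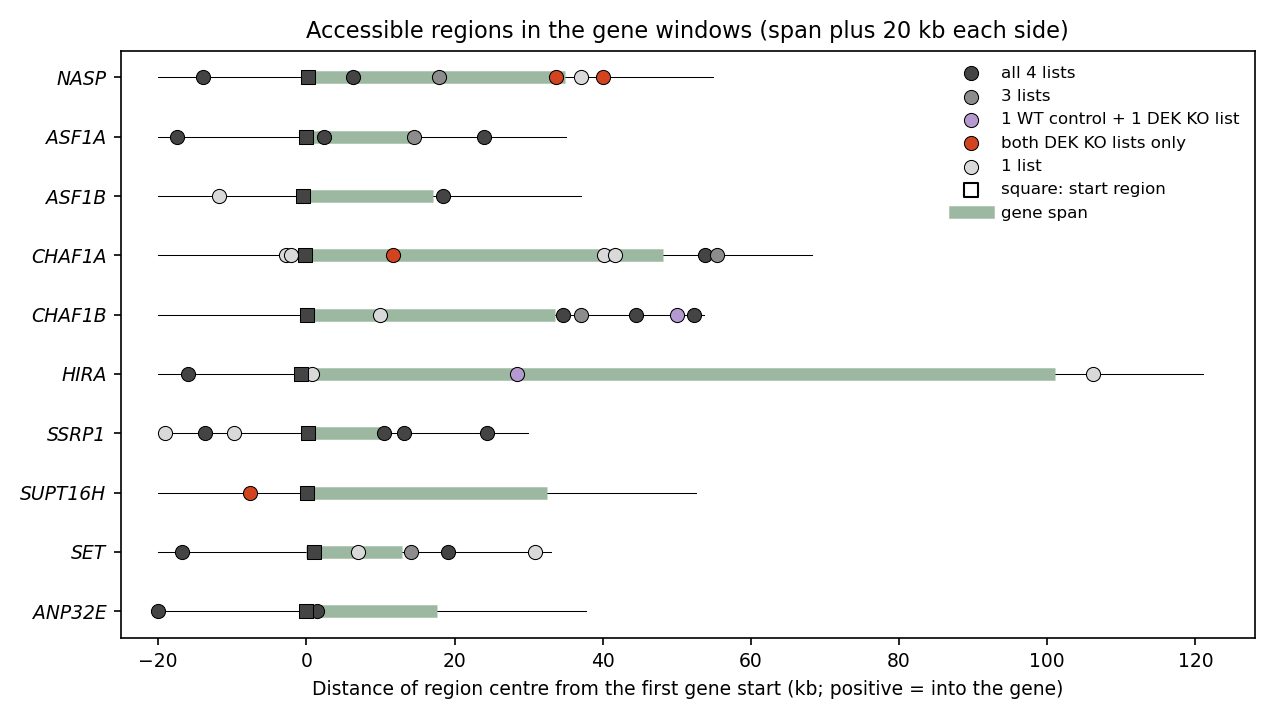
Accessible regions in the windows of the 10 genes. The x axis gives the distance of each region's centre from the gene start in kb, positive into the gene; for ANP32E, and there only, the origin is the gene end of higher coordinate. Green bars are gene spans, squares are start regions and colours give the lists that called a region. All 10 squares are regions of all 4 lists, and the 4 red circles, called in both DEK KO lists only, lie at NASP (2), CHAF1A and SUPT16H.

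Every one of the 10 genes had a start region called in all 4 lists. Across protein-coding genes with a start in the RefSeq promoter table, 62.2% had one. The median percentile of the members' start regions, averaged over the 4 lists, was 88.7, beside 84.2 over the 9842 genes with such a region, and the median width was 1283 bp beside 1103 bp. ASF1B had the highest average, 98.1, and CHAF1B the lowest, 62.4. The median over the 10 genes was 85.9 and 91.9 in WT control and 87.1 and 89.6 in DEK KO. These 4 values overlapped between the groups, with 88.9 ± 4.24 (SD, n = 2) in the controls and 88.4 ± 1.78 (n = 2) in DEK KO, a difference of -0.52 percentile points (exact permutation test, two-sided, p = 1). With 2 libraries against 2 the smallest p that this test allows is 0.333.

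**Figure D2:**
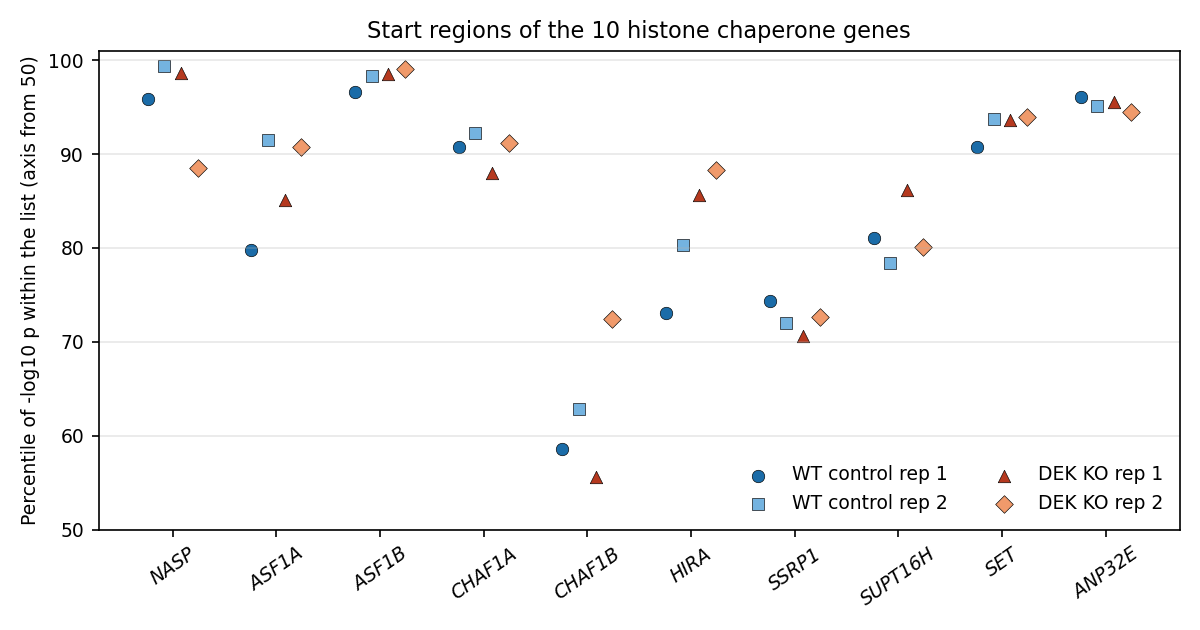
Percentile of −log10 p of each gene's start region within each of the 4 lists. Each point is 1 library, blue for WT control and red for DEK KO, and the axis begins at 50. The points of both DEK KO libraries lie above both controls at ASF1B and HIRA alone among the 10 genes, in the lists as deposited.

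Among the genes of replication-coupled assembly, NASP had a strong start region in all 4 libraries (chr1:45583306-45585134). Its percentiles were 95.9 and 99.3 in WT control and 98.7 and 88.5 in DEK KO. DEK KO replicate 2 was the low library, and the groups overlapped. The summit lay upstream of the RefSeq start in every list, at -400, -406, -391 and -527 bp in the same order, outside the promoter sequence of the RefSeq table.

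ASF1B, the ASF1 form tied to dividing cells, ranked higher in both DEK KO lists (chr19:14136400-14137746). Its percentiles were 96.6 and 98.3 in WT control and 98.6 and 99.0 in DEK KO. At equal length they were 96.6, 98.3, 98.4 and 98.9, so the groups did not overlap on either scale, although WT control replicate 2 and DEK KO replicate 1 lay close together. The region also reached the start of ADGRL1-AS1, a divergent noncoding RNA gene that begins 563 bp away, and the summits lay from 65 to 341 bp from that start and between -498 and -222 bp of the ASF1B start. The peaks were 1277 and 1347 bp wide in the controls and 1225 and 1274 bp in DEK KO. Their folds over background overlapped, at 7.95 and 8.19 in the controls and 7.72 and 8.70 in DEK KO.

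ASF1A, the other ASF1 form, lies inside the span of MCM9, a helicase gene. Its start region (chr6:118893153-118895180) was among the widest of the 10, at 1903 and 1935 bp in WT control and 1830 and 1746 bp in DEK KO. Both DEK KO peaks were narrower than both control peaks. The percentiles of 79.8 and 91.5 in the controls and of 85.1 and 90.8 in DEK KO overlapped.

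CHAF1A and CHAF1B encode subunits of CAF1, and their start peaks were the narrowest of the 10 in the controls. The CHAF1A peak (chr19:4402138-4402693) was 516 and 457 bp wide in WT control and 367 and 388 bp in DEK KO. Both DEK KO peaks were narrower, a ratio of means of 0.776, and the upstream edge lay at -502 and -481 bp from the gene start in the controls and at -332 and -334 bp in DEK KO. Its percentiles were 90.7 and 92.3 in the controls and 88.0 and 91.2 in DEK KO, which overlapped, but at equal length the DEK KO values of 86.3 and 90.2 lay below the control values of 90.7 and 92.2.

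The CHAF1B peak was wider in both DEK KO libraries (chr21:36385059-36385928). It measured 434 and 391 bp in WT control and 831 and 680 bp in DEK KO, a ratio of means of 1.83. The groups did not overlap, and the added width lay on the side of the gene body: the downstream edge was at 137 and 57 bp past the start in the controls and at 536 and 384 bp in DEK KO, while the upstream edge stayed between -333 and -294 bp in all 4 lists. Its percentiles of 58.6 and 62.8 in the controls and of 55.7 and 72.4 in DEK KO overlapped, as did its folds over background of 6.16 and 6.17 against 5.38 and 8.57. The 2 CAF1 genes thus had start peaks that differed in width in opposite directions.

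HIRA, the chaperone of assembly outside replication, had the largest percentile difference among the 10 start regions (chr22:19431726-19433183). Its percentiles were 73.1 and 80.3 in WT control and 85.6 and 88.3 in DEK KO. The groups did not overlap, with a mean difference of 10.3 percentile points, and at equal length the values of 73.1, 80.1, 83.5 and 87.0 gave 8.67 points. Both DEK KO peaks were also wider, 1197 and 1458 bp against 1172 and 1145 bp. The HIRA folds over background overlapped, at 6.81 and 7.36 in WT control and 6.99 and 8.57 in DEK KO. The start of MRPL40, a gene of the mitochondrial ribosome, lies 812 bp away on the opposite strand and inside this region. The summits lay from 54 to 321 bp from the MRPL40 start and between -758 and -491 bp of the HIRA start. The edge of the peak facing the HIRA gene stopped 68, 82 and 79 bp short of its start in WT control and DEK KO replicate 1, and passed it by 7 bp in DEK KO replicate 2. The region therefore cannot be given to HIRA rather than MRPL40.

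The start percentiles of the FACT genes overlapped between the groups in the lists as deposited. The SSRP1 start region (chr11:57334915-57336381) had percentiles of 74.4 and 72.0 in WT control and of 70.6 and 72.6 in DEK KO. Its summits fell within 36 bp of each other over the 4 lists and between -33 and 3 bp of the start, the tightest placement of the 9 genes with a RefSeq start. At equal length its DEK KO values, 66.3 and 69.6, lay below the control values of 74.4 and 71.7. The SUPT16H region (chr14:21383194-21384715) had percentiles of 81.1 and 78.4 in the controls and of 86.2 and 80.1 in DEK KO, which overlapped on both scales. Its summit was the most scattered, over 414 bp. DEK KO replicate 1 peaked 100 bp inside the gene and the other 3 libraries between -314 and -242 bp, near the start of the noncoding RNA gene LOC107984643.

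SET and ANP32E had strong start regions in every library. The SET region (chr9:128683454-128685511) had percentiles of 90.7 and 93.7 in WT control and of 93.6 and 93.9 in DEK KO, and its widths of 1815 and 1693 bp against 1624 and 1427 bp did not overlap between the groups. ANP32E has no entry in the promoter table, so its region is the one at the gene end of higher coordinate (chr1:150235722-150236663). Its percentiles were 96.1 and 95.1 in the controls and 95.5 and 94.5 in DEK KO, and at equal length 94.9 and 93.9 in DEK KO, below both controls. Its widths of 942 and 923 bp in the controls and of 922 and 892 bp in DEK KO differed by a few bp without overlap.

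The counts over the 10 start regions are set beside those of all genes. Both DEK KO percentiles were above both controls at 2 of the 10 start regions, where 22.8% of all start regions in the 4 lists were, and below them at 0, where 16.3% were. At equal length 2 were above (all start regions: 14.6%), and 3, those of CHAF1A, SSRP1 and ANP32E, were below (24.5%). Both DEK KO peaks were narrower than both controls at 6 (NASP, ASF1A, ASF1B, CHAF1A, SET and ANP32E), where 24.4% of all start regions were, and wider at 2 (CHAF1B and HIRA), where 15.5% were. The median start width per library was 1229.5 and 1308 bp in WT control and 1223.5 and 1407 bp in DEK KO, which overlapped (1269 ± 55.5 bp against 1315 ± 130 bp, SD, n = 2 each, exact permutation p = 1).

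**Figure D3:**
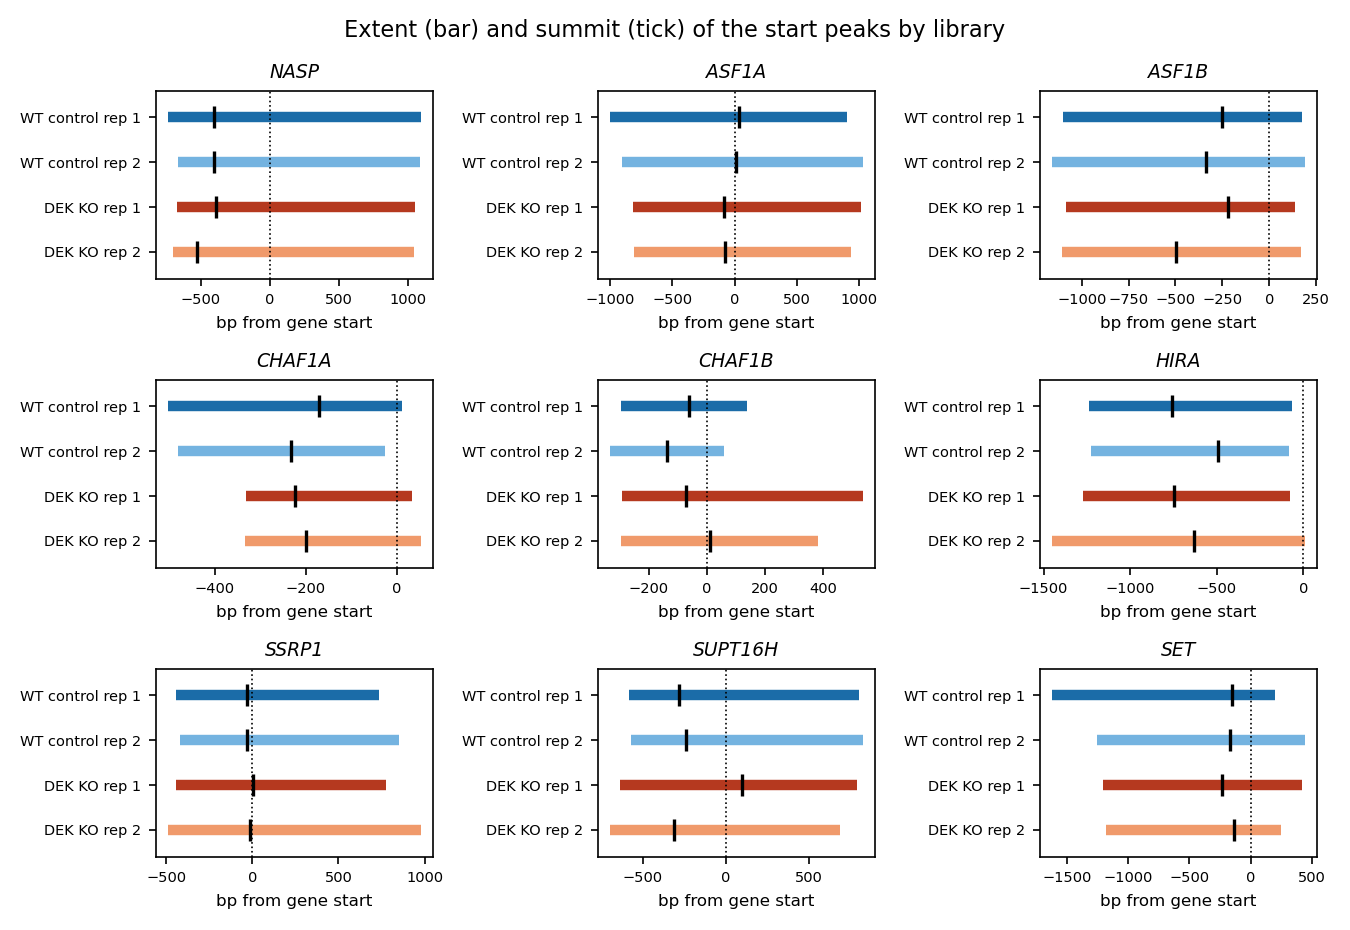
Extent and summit of the start peak in each library for the 9 genes with a RefSeq start. The x axis is bp from the gene start, positive into the gene (for SET, from the start nearest the region's centre); bars are peaks, ticks are summits, blue is WT control and red is DEK KO. The CHAF1B bars reach further into the gene in both DEK KO libraries, and 3 of the 4 HIRA bars end before the start.

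The RefSeq promoter sequences (GRCh38.p14, on the strand of the gene, 5′ to 3′) are printed for the genes whose start peaks stood out above: ASF1B and HIRA, ranked higher in both DEK KO lists, and the CAF1 pair, which differed in width in opposite directions. Each sequence is 300 bases long and the last 50 begin at the start of transcription. Capitals mark matches to the letters searched on both strands: CCAAT (NF-Y), GGGCGG (SP factors), CCGGAAG (ETS factors), TTTGAA (the cell cycle homology region), CACGTG (E-box) and TTTCCCGC, TTTGGCGC, TTTCGCGC and TTTGCCGC (E2F).
ASF1B, chr19:14136540-14136839, minus strand: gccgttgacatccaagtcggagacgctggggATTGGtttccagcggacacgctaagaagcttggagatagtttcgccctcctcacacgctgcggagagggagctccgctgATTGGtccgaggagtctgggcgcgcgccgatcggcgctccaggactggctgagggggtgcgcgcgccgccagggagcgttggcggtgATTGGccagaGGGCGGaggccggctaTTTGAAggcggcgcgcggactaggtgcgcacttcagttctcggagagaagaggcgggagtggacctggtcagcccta
HIRA, chr22:19431684-19431983, minus strand: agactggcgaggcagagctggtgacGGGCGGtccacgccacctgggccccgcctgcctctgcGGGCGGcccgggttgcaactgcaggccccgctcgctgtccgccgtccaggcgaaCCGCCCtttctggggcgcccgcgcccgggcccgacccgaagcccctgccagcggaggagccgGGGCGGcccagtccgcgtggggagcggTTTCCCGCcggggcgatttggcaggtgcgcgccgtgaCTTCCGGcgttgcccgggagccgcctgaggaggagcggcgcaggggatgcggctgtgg
CHAF1A, chr19:4402390-4402689, plus strand: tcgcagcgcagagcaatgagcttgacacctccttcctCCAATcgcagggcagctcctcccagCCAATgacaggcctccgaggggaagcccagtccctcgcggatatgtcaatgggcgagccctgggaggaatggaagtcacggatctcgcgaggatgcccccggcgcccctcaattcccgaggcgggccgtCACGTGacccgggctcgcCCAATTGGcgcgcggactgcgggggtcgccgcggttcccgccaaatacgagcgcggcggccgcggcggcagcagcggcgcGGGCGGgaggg
CHAF1B, chr21:36385142-36385441, plus strand: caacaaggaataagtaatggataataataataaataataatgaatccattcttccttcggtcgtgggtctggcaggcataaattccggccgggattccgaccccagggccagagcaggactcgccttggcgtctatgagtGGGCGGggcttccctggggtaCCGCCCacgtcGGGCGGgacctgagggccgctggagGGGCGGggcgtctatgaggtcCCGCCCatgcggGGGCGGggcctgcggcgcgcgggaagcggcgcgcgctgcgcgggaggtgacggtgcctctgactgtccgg

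These promoters differ in the letters they hold. ASF1B has CCAAT 3 times, each on the opposite strand, with first bases at -219, -140 and -53, and TTTGAA at -27. CHAF1A has CCAAT 4 times and CACGTG at -59, and the matches at -41 and -38 overlap as a CCAATTGG palindrome. CHAF1B has neither and holds GGGCGG 6 times between -110 and -20, counting both strands. HIRA holds GGGCGG 4 times and is the only member with any of the 4 E2F forms, TTTCCCGC at -45, which 1.64% of the 34961 RefSeq promoters hold (3.33% hold any of the 4). The gene-facing edge of the HIRA peak lay at -68 and -82 bp in WT control and at -79 and 7 bp in DEK KO. The E2F match and the CCGGAAG match at -8 thus lay inside the peak of DEK KO replicate 2 alone. The 9 members in the table have 13 promoters, 5 of them of SET. CCAAT occurs in 34.6% of all promoters and in 9 of the 13, which belong to 6 members. GGGCGG occurs in 45.0% and in 9 of the 13, which belong to 7 members. CCGGAAG occurs in 10.3% and in 4 of the 13 (NASP, HIRA, SSRP1 and SUPT16H). TTTGAA occurs in 15.2% and in 1 of the 13 (ASF1B). CACGTG occurs in 7.27% and in 4 of the 13, which belong to 3 members (CHAF1A, SET and SUPT16H). GCGCATGC (NRF1), TGACGTCA (CREB), TGANTCA (AP-1) and AAGATGGC (YY1) matched no member promoter in these windows, and occur in 3.06%, 1.85%, 7.68% and 2.89% of all. A match is a run of letters and not a measured binding site.

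SET shows how a gene with several starts was covered. The RefSeq table gives it 5 promoters, and the third, at chr9:128685072, lay wholly inside the peak of all 4 lists. The first, at 128683424, had 20 of 300 bases in a peak of WT control replicate 1 and 0 in the other lists. The second, at 128683793, had 300 and 24 bases in a peak of the WT control lists and 0 in both DEK KO lists. The fourth and the fifth, at 128689222 and 128689974, had 0 of 300 bases in a peak of any list, and the only region near them was called in WT control replicate 2 alone (percentile 11.8). The GC content of the third was 54.7%, against 81.0% and 81.3% in the fourth and the fifth and a median of 58.7% over all promoters. Whether GC content bears on their absence from the lists was not tested. The third and the fourth are shown because all libraries called the former and none the latter. Capitals mark CCAAT and GGGCGG on either strand.
SET at 128685072, chr9:128684822-128685121, plus strand: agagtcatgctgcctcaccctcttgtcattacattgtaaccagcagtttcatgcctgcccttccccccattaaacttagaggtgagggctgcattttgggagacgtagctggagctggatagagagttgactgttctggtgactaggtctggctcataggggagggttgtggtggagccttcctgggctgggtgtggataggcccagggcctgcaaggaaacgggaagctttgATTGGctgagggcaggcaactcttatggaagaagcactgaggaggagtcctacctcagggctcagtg
SET at 128689222, chr9:128688972-128689271, plus strand: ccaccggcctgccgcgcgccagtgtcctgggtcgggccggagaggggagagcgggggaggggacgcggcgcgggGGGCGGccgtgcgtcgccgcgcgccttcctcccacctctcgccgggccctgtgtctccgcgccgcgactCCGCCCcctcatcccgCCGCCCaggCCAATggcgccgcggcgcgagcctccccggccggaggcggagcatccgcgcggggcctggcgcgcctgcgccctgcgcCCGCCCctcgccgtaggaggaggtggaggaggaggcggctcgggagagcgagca

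Regions called in both DEK KO lists and neither control list numbered 4 among the 53, where 6.26% of all regions were of this class. WT-only regions numbered 0, where 2.57% of all regions were. The 4 KO-only regions lay in the windows of 3 of the 10 genes, NASP, CHAF1A and SUPT16H, and 26.3% of all protein-coding genes had at least 1 in a window of the same flanks (13.3% had a WT-only region). None of the 4 lay at the start of a chaperone gene. Regions of all 4 lists made up 29 of the 53 (54.7%, beside 45.3% of all regions). They were 3 of 3 in the ANP32E window, 4 of 5 at ASF1A, 5 of 7 at SSRP1, 2 of 3 at ASF1B, 4 of 7 at CHAF1B, 3 of 6 at SET, 1 of 2 at SUPT16H, 3 of 7 at NASP, 2 of 5 at HIRA and 2 of 8 at CHAF1A. KO-only shares varied between the chromosomes of the members, from 4.84% on chromosome 1 to 9.76% on chromosome 22.

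At NASP, the stronger KO-only region lay inside the gene, 0.777 kb before its far end and 33.7 kb from its start (chr1:45617367-45618116). The gene is read on the plus strand, so this is the end of the gene and not its promoter. The DEK KO libraries called it with −log10 q of 9.22 and 8.51, percentiles of 40.9 and 34.0 and folds over background of 5.13 and 5.67, and the peak of replicate 1 lay wholly inside that of replicate 2. The nearest peak of a control list was 2.47 kb away. A weaker KO-only region in the same window (chr1:45623823-45624258, percentiles of 15.3 and 10.5) lay at the start of CCDC17, the next gene.

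The region inside CHAF1A (chr19:4414117-4414566), 11.7 kb from the start, had percentiles of 21.6 and 14.7, and the peaks of the 2 DEK KO libraries shared only 25 bp. When an overlap had to cover 0.5 of the length of the shorter peak, it was no longer a shared region, and 3 KO-only regions were left. The region in the SUPT16H window (chr14:21391358-21391872, percentiles of 11.9 and 6.22) lay 7.34 kb upstream of the gene, inside the span of CHD8. With −log10 q of at least 5 in every list, the NASP gene-end region was the only KO-only region left. At equal length the SUPT16H region was lost, which left 3 KO-only regions (all regions: 5.16%) and gave 1 WT-only region (3.96%).

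Exactly 3 lists called 5 regions (9.43%, where 11.2% of all regions were in exactly 3 lists). In each of the 5 the missing peak was that of a DEK KO library. How often that is so over all regions was not counted. The other DEK KO library was not always low. At the far end of ASF1A (chr6:118908183-118909248) the percentiles were 67.9 and 69.7 in WT control and 34.5 in DEK KO replicate 1, and DEK KO replicate 2 had no peak. Folds over background were 10.1 and 9.80 in the controls and 5.49 in DEK KO replicate 1. This was the highest percentile reached by any of the 24 regions that were not in all 4 lists. Within NASP a weak region (chr1:45601579-45602315) had percentiles of 20.8 and 32.8 in the controls and of 6.22 in DEK KO replicate 2, with no peak in DEK KO replicate 1. It became WT-only, the only such region, with −log10 q of at least 5 and at equal length. Beyond the end of CHAF1A (chr19:4457849-4458171) the percentiles were 37.9 and 30.3 in the controls and 50.5 in DEK KO replicate 2. Beyond CHAF1B (chr21:36422022-36422899) they were 18.8 and 28.2 in the controls and 33.5 in DEK KO replicate 1. At these 2 regions the DEK KO library with a peak ranked above both controls in the lists as deposited, and at the fifth, beyond SET (chr9:128697040-128698138), the values of 19.2 and 16.9 in the controls and 16.3 in DEK KO replicate 2 lay close together.

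The remaining regions of all 4 lists, 19 beside the start regions, had a median percentile of 61.6. NASP had a second region 6.32 kb into the gene (chr1:45589729-45590995), with percentiles of 77.4 and 72.1 in WT control and of 67.6 and 43.9 in DEK KO. Upstream of it, a region in AKR1A1 (chr1:45569581-45570616), an aldehyde reductase gene, had 63.7 and 72.6 against 60.4 and 47.3. At both, the DEK KO values were below the control values, and DEK KO replicate 2 was the lowest.

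Past the end of CHAF1B the regions went both ways. The one just beyond the gene (chr21:36419522-36420538) had percentiles of 76.1 and 57.7 in WT control and of 46.2 and 55.2 in DEK KO. The one furthest out (chr21:36437344-36438119), 18.3 kb from the gene in CLDN14-AS1, had 37.9 and 53.0 against 68.4 and 84.6, with both DEK KO libraries well above both controls. Between them, a very strong region (chr21:36428889-36430945) stayed between 97.6 and 99.1 in all 4 lists, slightly lower in both DEK KO lists.

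Other regions of the windows belong to neighbouring genes. The second region of the HIRA window (chr22:19446972-19448359), at the starts of C22orf39 and UFD1-AS1, had percentiles of 74.2 and 67.1 in WT control and of 88.0 and 77.6 in DEK KO, so both regions of all 4 lists in this window ranked higher in DEK KO. On chromosome 22, 9.76% of regions were KO-only, beside 6.26% of all regions. How many regions of that chromosome ranked higher in DEK KO is not given here. In the SSRP1 window a region inside P2RX3 (chr11:57349040-57350216), an ATP-gated channel gene, had 85.0 and 84.7 against 93.1 and 91.2. The region at the start of PKN3 in the SET window (chr9:128702203-128702980) had 76.9 and 76.0 against 79.9 and 83.7, and the region at the start of UBXN6 in the CHAF1A window (chr19:4455706-4457304) had 61.3 and 58.3 against 49.9 and 57.5. In each of these 4 the groups did not overlap.

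Of the 29 regions of all 4 lists, 6 ranked above both controls in both DEK KO lists (all regions: 31.1%) and 5 ranked below (19.2%). At equal length all 6 and all 5 kept their order and 5 further regions ranked below both controls, giving 6 above (22.5%) and 10 below (28.0%). The balance thus turned from more above to more below, for the members as for all regions. Ranking by fold over background in place of −log10 p gave 2 above and 7 below among the members. The shares over all regions were not counted for that ranking, so these 2 counts have nothing to be set beside. Both DEK KO widths were above both controls at 6 of the 29 (18.0%) and below at 9 (23.0%).

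**Figure D4:**
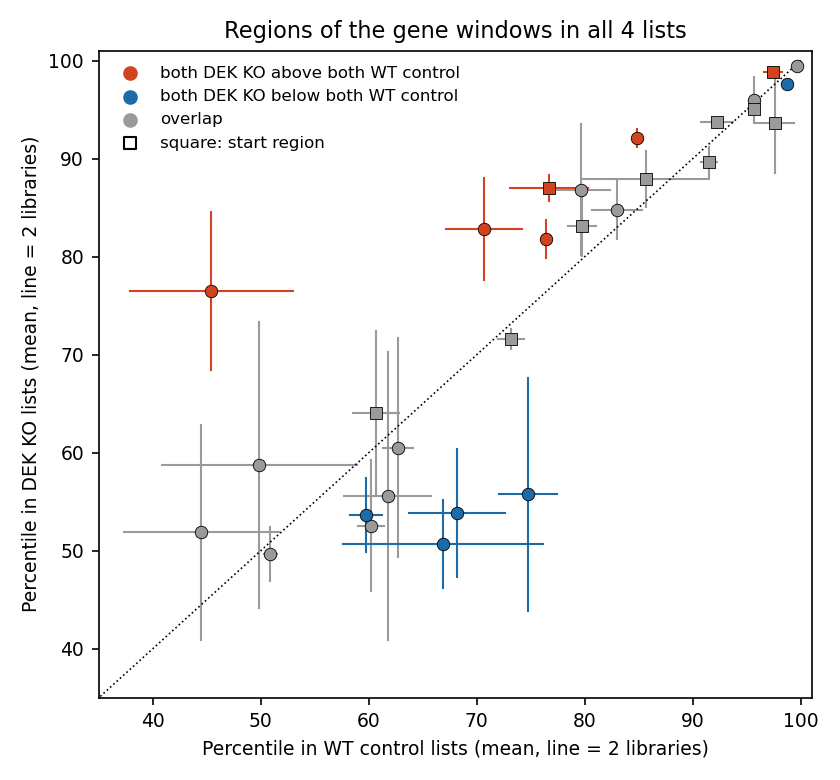
Percentiles of the 29 window regions that all 4 lists called. The x axis is the mean of the WT control lists and the y axis the mean of the DEK KO lists, lines join the 2 libraries of a group, squares are start regions and the dotted line marks equal values. The groups did not overlap at the 6 red points, which lie above the line, and at the 5 blue points, which lie below it. Grey points are regions where the groups overlapped, and some of them lie away from the line. The strongest regions, at the upper right, lie near it, in whichever colour.

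The last comparison sums the 10 windows in each library. The WT control libraries had 39 and 36 peaks and the DEK KO libraries 41 each. Both DEK KO libraries had more, 41 ± 0 against 37.5 ± 2.12 (SD, n = 2 each, exact permutation p = 0.333, the smallest possible). Per 10000 peaks of the whole list the values were 4.35 and 3.98 in the controls and 3.99 and 4.12 in DEK KO, which overlapped. Covered length was 35649 and 32891 bp in the controls and 35449 and 33948 bp in DEK KO, a difference of 428.5 bp (exact permutation p = 1). The windows held 0.733 regions per 10 kb, beside 0.653 for all protein-coding genes, from 0.276 at SUPT16H and 0.355 at HIRA to 1.40 at SSRP1.

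A wider list of 35 chaperones and their partners, with DEK itself among them, was read the same way. A start region in all 4 lists was present at 33, and NAP1L2 and NAP1L3 had none. The median start percentile was 88.4. Of the 198 regions in these windows, 11 were KO-only (5.56%) and 2 were WT-only (1.01%), beside 6.26% and 2.57% of all regions. A KO-only region was present at 9 of the 35 genes (25.7%, beside 26.3% of all genes) and a WT-only region at 2 (all genes: 13.3%). The strongest KO-only region lay in the window of DNAJC9, a chaperone of H3 and H4 (chr10:73262237-73262569), with percentiles of 78.1 and 74.4 in DEK KO. The next was at ANP32B, a relative of ANP32E (chr9:98021783-98022975), with 73.6 and 51.6.

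SUPT6H, a chaperone of transcribed chromatin, UBN2, a HIRA partner, MCM2, a helicase subunit that binds H3 and H4, and RBBP7, a subunit shared by several histone complexes, had KO-only regions whose lower percentile of the 2 DEK KO libraries was 36.4, 36.2, 32.4 and 31.9 in that order. At VPS72, a chaperone of H2A.Z, HIRIP3 and NAP1L1 it was 20.3, 20.1 and 13.9. The 2 WT-only regions were at RBBP4, a subunit of CAF1 (chr1:32666552-32667213, percentiles of 50.9 and 44.7 in WT control), and at MMS22L (9.35 and 2.38).

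Both DEK KO start percentiles were above both controls at 12 of the 33 (36.4%, beside 22.8% for all genes) and below at 1 (all genes: 16.3%). The 1 below was RBBP7, with 82.6 and 78.2 in WT control and 67.9 and 61.6 in DEK KO. DEK itself, the targeted gene, was counted in the 33 and in the 12, at the percentiles given above. The 12 also included UBN1, a HIRA partner (82.7 and 79.5 against 89.5 and 91.3), CDAN1, which binds ASF1 (55.0 and 59.9 against 72.2 and 68.9), and MCM2 (80.5 and 81.3 against 89.0 and 93.0). At equal length 7 were above, DEK again among them, and 6 below, beside 14.6% and 24.5% for all genes.

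The 10 genes of variant and linker histones had 0 KO-only regions and 1 WT-only region among 52, where 6.26% and 2.57% of all regions were of these classes. The WT-only region lay at CENPA, the centromeric form of H3 (chr2:26771199-26771502, percentiles of 10.6 and 20.4 in WT control). Start regions were called in all 4 lists at 9 and were absent at MACROH2A2. Both DEK KO percentiles were above both controls at 4 of the 9 (44.4%, beside 22.8% for all genes) and below at 1 (all genes: 16.3%). At equal length they were above at 3 (all genes: 14.6%) and below at 2 (24.5%). H2AX ranked higher in both DEK KO lists (86.3 and 88.0 against 93.6 and 95.0) and H2AZ2 lower (98.1 and 97.7 against 88.0 and 94.0). H3-3B, a gene of the H3 form that HIRA carries, had 82.1 and 80.3 against 86.1 and 84.6, and H3-3A had 84.4 and 78.9 against 79.7 and 69.2, which overlapped in the lists as deposited, while at equal length both DEK KO values lay below both controls.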

How the data were processed

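ATAC-seq was represented by 1 deposited narrowPeak list per library, so the authors called peaks per library and not on pooled samples. Per the submitters' processing notes, MACS2 2.2.7.1 is among the tools, with Bowtie2 2.2.5 and cutadapt 1.18, then SAMtools 1.7 with Picard 2.26.9, deepTools 3.5.1, ChIPseeker 1.32.1 and DiffBind 3.6.5. The notes list hg38 and GRCh38 as builds and no settings. No source used here says whether reads were shifted for the transposase, and the library text of the labels describes an mRNA kit. The deposited fold is the ratio of pileup to background at the summit, the deposited p and q are on the −log10 scale, and the deposited score follows −log10 q. Such values hold within a list and served to rank or filter its own peaks.

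Only chromosomes 1 to 22 and X entered, so 135 to 167 peaks per list were dropped, and lists were merged at 1 bp of overlap. Where a library had several peaks in a region, the strongest gave the percentile. A start region is the region within 1 kb of a RefSeq start (GRCh38.p14), or of either gene end without one; where several qualified, the one in most lists, then with the highest mean percentile, was taken. All 10 members matched the gene table and 9 the promoter table. Library values were compared by exact permutation over the 6 assignments. The named genes were all members, every KO-only or WT-only region in their windows, and from the wider lists every gene with such a region, up to 12 a list; other regions and start values were named after they were seen. Members and lists were chosen with earlier results of these data known. Among the renal markers, 2 genes are not reported here. Merging and classing were tested on simulated data. Python 3.11.15, numpy 2.4.6, pandas 2.3.3 and matplotlib 3.10.9 were used.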

Additional observations from a re-analysis of the deposited data

How the results depend on the processing

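The counts were small and moved with most settings. KO-only regions, 4 as reported, were 2 with gene spans alone, 9 with 50 kb on each side and 1 with −log10 q of at least 5, and ran from 4 to 9 when each library was left out in turn. WT-only regions, 0 as reported, were 1 with −log10 q of at least 5 and 1 at equal length, and ran from 2 to 3 with a library left out. Regions above both controls, 6 as reported, were 2 with gene spans alone, 15 with 50 kb and 2 when ranked by fold, and from 8 to 14 with a library left out. Regions below, 5 as reported, were 1 with gene spans alone, 8 with 50 kb and 10 at equal length, and from 7 to 12. KO-only regions were 8 without DEK KO replicate 1, 9 without DEK KO replicate 2 and 4 without either control. Regions above both controls were 14, 12, 11 and 8 without DEK KO replicate 1, DEK KO replicate 2, WT control replicate 2 and WT control replicate 1, and regions below were 12, 12, 7 and 9. With fewer lists to satisfy, each of these conditions is easier to meet. With −log10 q of at least 5 or with a library left out, the shares over all regions are not given here. Nor is the number of window regions with gene spans alone or with 50 kb. These counts therefore do not say whether the members moved differently from all regions.

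The difference in window peaks, 3.5, was -0.5 with −log10 q of at least 5 and from 2 to 5 with a library left out. The difference in covered length, 428.5 bp, was -955.5 with −log10 q of at least 5 and -618.5 at equal length, and from -950.5 to 1807.5 with a library left out. The start percentile difference of -0.52 ran from -3.52 to 2.48 and the start width difference of 46.5 bp from -45.2 to 138 in the same way, so neither has a stable direction. With the replicate number as a block, an exact sign-flip test over 2 pairs cannot go below 0.5; it gave p = 0.5 for the 3.5 window peaks and p = 1 for the 428.5 bp, the -0.52 points and the 46.5 bp, and changed no call. Same-numbered libraries share only a number: their deviations had a correlation of 0.012 over 62686 regions. Read depth was unknown, so the absence of a peak says only that a list does not hold it.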
